A study of Mus musculus with 2 samples.

Results

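The Lin28, Igf2bp and Hmga genes were followed in stomachs of mouse embryos of strain B6NCrl at 14.5 days of gestation (E14.5). The members are Lin28a, Lin28b, Igf2bp1, Igf2bp2, Igf2bp3, Hmga1 and Hmga2, chosen by symbol, and they are 7 of the 43346 Ensembl genes in the deposited tables. Total RNA was sequenced from 2 libraries, replicate 1 and replicate 2, which the labels call biological replicates and which form 1 group. Per the labels each library came from the stomach of 1 pup, although the sex label reads pooled male and female, and collection fell on day 15 of the month for replicate 1 and day 17 for replicate 2. The labels start each library from 10 ng of RNA, keep RNAs longer than 200 nt and add spike-in RNAs. No treatment, genotype or second tissue is labelled, so the members could be compared with each other, with the rest of the transcriptome and between the libraries, but not between conditions.

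The 3 families are called oncofetal because they are high in embryos, fall in most adult tissues and return in many tumours. LIN28 proteins bind precursors of the microRNA let-7 and block their maturation, and mature let-7 in turn represses messages that carry its target sites, among them messages of all 3 families. IGF2BP proteins bind messages such as those of Igf2, Actb and Myc and affect their stability and location, and HMGA proteins bind AT-rich DNA through AT-hooks and bend it.

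Mature let-7 sequences of the mouse are shown because they define the site searched for in the members. They come from RefSeq on GRCm38.p6, run 5′ to 3′, and have the seed, bases 2 to 8, in capitals. Positions are those of 1 RefSeq locus each.
let-7a-5p, chr13:48538239-48538260, minus strand: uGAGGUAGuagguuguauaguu
let-7d-5p, chr13:48536078-48536099, minus strand: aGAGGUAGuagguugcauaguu
let-7g-5p, chr9:106178846-106178867, plus strand: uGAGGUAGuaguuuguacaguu
miR-98-5p, chrX:151913229-151913250, plus strand: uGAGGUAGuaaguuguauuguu
let-7j, chr3:140028281-140028304, plus strand: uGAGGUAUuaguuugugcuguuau
The first 4 belong to a group of 10 mature names that share the seed GAGGUAG, and let-7j alone has GAGGUAU, a seed that differs at its last base.

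The sequence complementary to the shared seed is CTACCTC in DNA letters. It was searched on the transcript strand of 3′ UTRs, taking for each gene its coding transcript with the highest level here, in the GENCODE M21 models. All 7 members held it, 17 times in all, whereas 8.74% of the 3′ UTRs of 13110 detected genes did. Several members are textbook let-7 targets, so this count is not independent of why the genes are grouped. One match per gene is printed, the nearest to the stop codon among those followed by A where there is one, and all 4 for Hmga2, with the match in capitals and coordinates on mm10.
Lin28a, chr4:134005189-134005211, minus strand: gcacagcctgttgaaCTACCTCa
Lin28b, chr10:45381022-45381044, minus strand: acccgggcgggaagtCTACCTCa
Igf2bp1, chr11:95961778-95961800, minus strand: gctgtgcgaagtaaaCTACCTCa
Igf2bp2, chr16:22059473-22059495, minus strand: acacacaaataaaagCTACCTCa
Igf2bp3, chr6:49086787-49086809, minus strand: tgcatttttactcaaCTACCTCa
Hmga1, chr17:27563277-27563299, plus strand: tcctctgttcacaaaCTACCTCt
Hmga2, chr10:120364224-120364246, minus strand: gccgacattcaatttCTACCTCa
Hmga2, chr10:120362987-120363009, minus strand: ccccactcctcaataCTACCTCt
Hmga2, chr10:120362549-120362571, minus strand: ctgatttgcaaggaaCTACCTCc
Hmga2, chr10:120361691-120361713, minus strand: aatcaaaacacactaCTACCTCt
A match followed by A was present in 6 of the 7 members, and in 3.07% of the 13110 UTRs. Hmga1 was the member without one.

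Hmga2, Igf2bp1 and Lin28b held 4 matches each, Lin28a 2, and Hmga1, Igf2bp2 and Igf2bp3 1 each. The first match lay 20 bases after the stop codon in Hmga2 and 35 bases after it in Lin28b. A longer UTR has more room for a match, so each gene was set beside detected genes with a UTR within 20% of its length. Of 1335 such genes for Hmga2, whose UTR has 2977 bases, 14.8% held any match and 0 held 4 or more. Of 300 genes near the 6337 bases of Igf2bp1, 35.7% held any match and 0.333% held 4 or more. The single matches of Hmga1, Igf2bp2 and Igf2bp3 stand beside shares of 7.68%, 12.0% and 12.7%. For Lin28b, of 740 detected genes of like UTR length, 24.9% held any match and 0.270% held 4 or more. For Lin28a, of 1437 such genes, 13.8% held any match and 2.37% held 2 or more. Over all 13110 detected genes, 6 had 4 or more matches, Hmga2 and Igf2bp1 among them. A match is a run of letters and not a measured site of binding.

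**Figure D1:**
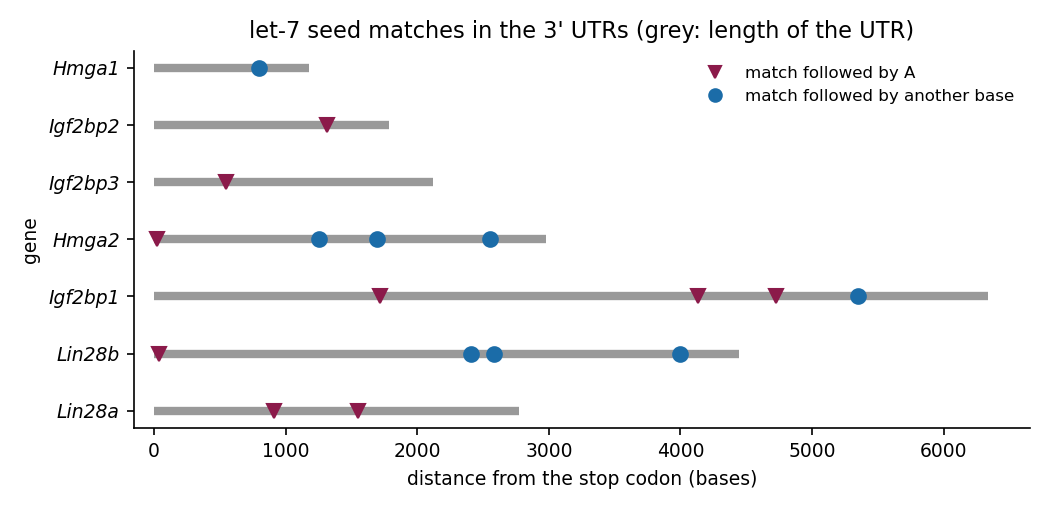
Positions of the 17 let-7 seed matches along the 3′ UTRs of the 7 members. The x axis is the distance from the stop codon in bases, grey bars give the UTR length, triangles mark matches followed by A and circles the others. Hmga2 and Lin28b each have a match followed by A close to the stop codon and 3 others further on, and Igf2bp1 has 4 matches, the first after 1714 bases.

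Levels are given as deposited TPM, a measure scaled to a fixed total that corrects for transcript length and so allows genes to be compared. Detection meant at least 1 TPM in replicate 1 and also in replicate 2. By that rule 5 of the 7 members were detected, all 3 Igf2bp and both Hmga genes, and Lin28a and Lin28b were not. Of 21474 protein coding genes 61.8% were detected, with a median of 18.4 TPM. Depth was 25072242 expected counts for replicate 1 and 25599910 for replicate 2. Fewer cells that express a gene and less RNA per cell cannot be told apart in whole stomachs.

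**Figure D2:**
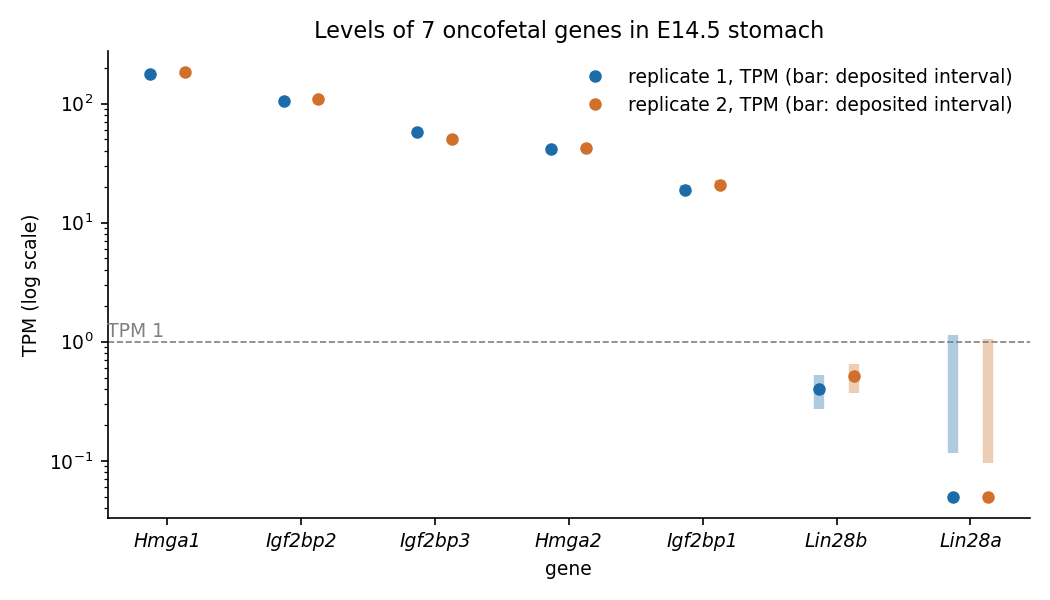
TPM of each member on a log scale, with replicate 1 in blue left of replicate 2 in orange; points are deposited TPM and pale bars the deposited interval, which is narrower than the point for the 5 detected genes. Hmga1 is highest at 179 and 183 TPM, Igf2bp1 lowest of the detected genes at 18.9 and 20.6 TPM, and both Lin28 genes lie under the dashed line at TPM 1. The interval does not hold the point for Lin28a in either library or for Igf2bp3 in replicate 1.

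Lin28a (ENSMUSG00000050966.5, chr4:134003330-134018841, minus strand), the form best known from pluripotent cells, took 3 counts in replicate 1 and 3 in replicate 2, or 0.05 TPM in each. That equals the 3 counts that a count of 0 would allow, so its RNA was at the limit of what this depth can show. Its paralogue Lin28b (ENSMUSG00000063804.7, chr10:45376620-45486395, minus strand) had 36 counts in replicate 1 and 49 in replicate 2. The exact 95% Poisson intervals, which cover counting error only, were 25.2 to 49.8 and 36.3 to 64.8 counts and overlap. Lin28b thus had 0.40 and 0.52 TPM, or 0.460 ± 0.0849 TPM (SD, n = 2), a level above that of 32.6% of protein coding genes. By deposited TPM Lin28b was 8.0-fold and 10.4-fold above Lin28a in replicates 1 and 2. Counts do not correct for length, which is 3505 bases for Lin28a and 5402 for Lin28b. The exact 95% Poisson interval of Lin28a, 0.619 to 8.77 counts in each library, lies wholly below those of Lin28b. So does the deposited interval of Lin28a-201, the transcript with all Lin28a counts, at 0.0130 to 0.134 TPM in replicate 1 and 0.0117 to 0.127 TPM in replicate 2, against 0.273 to 0.529 TPM and 0.372 to 0.655 TPM for Lin28b. The deposited posterior mean of the whole gene, another estimate of TPM, goes the other way, with 0.56 and 0.53 TPM for Lin28a against 0.40 and 0.51 TPM for Lin28b. Its interval for Lin28a, 0.116 to 1.15 TPM in replicate 1 and 0.0964 to 1.06 TPM in replicate 2, takes in 3 further transcripts that had 0 counts, and it overlaps that of Lin28b.

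Germ cell and pluripotency genes, which mark the cells where Lin28a is best known, were mostly low as well. Of 11 listed genes 2 were detected, beside 61.8% of protein coding genes. The summed level of all 11 was 8.37 TPM in replicate 1 and 7.16 TPM in replicate 2. Pou5f1, which encodes the pluripotency factor OCT4, had 1.54 and 3 counts, and Utf1 and Tdgf1 had 0 counts in both libraries. Tfap2c, a regulator of germ cell and trophoblast fate, led the list with 4.28 and 4.12 TPM, and Prdm1 and Ddx4 followed. Ddx4, a germ cell RNA helicase, had 63 counts in replicate 1 and 19 in replicate 2.

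By the rule of 1 TPM the genes that make, bind and turn over let-7 were all detected, whereas the Lin28 pair was not. All 20 genes of the processing list were detected, beside 61.8% of protein coding genes. None was over 2-fold apart between the libraries. The full count depends on the cut-off, since Trim71 lay at it in replicate 2, with 1.20 and 1.00 TPM. Ago4 was next lowest with 1.86 and 2.44 TPM, and both were named after their values were seen. Hnrnpa1, which binds let-7a precursors in human cells, had 618 and 633 TPM. Ddx5, a helicase of the Drosha complex, had 313 and 291 TPM, and Tarbp2, a partner of Dicer, 66.4 and 74.8 TPM. Tut4, which adds uridines to precursors held by LIN28, was next with 62.2 and 68.0 TPM, and Dis3l2, the nuclease that degrades such tailed precursors, had 19.6 and 19.5 TPM. Tut4 and Dis3l2 were named for their role after their values were seen.

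Precursors of let-7 could not be read from these libraries. The 10 annotated precursor genes of let-7 and miR-98 are 83 to 108 bases long, under the 200 nt that the libraries kept, and all had 0 counts. In the deposited values of replicate 1, 6 of them had an effective length of 0, so that no read could have been assigned. The longer genes in which the hairpins lie were detected. Of the 12 hairpins in RefSeq, 9 overlap another gene on the same strand, and these hosts, looked up after values were seen, are 6 genes. Huwe1, an X-linked ubiquitin ligase gene that holds Mir98 and Mirlet7f-2, had 60.7 and 63.4 TPM. Mir99ahg, a long noncoding RNA gene that holds Mirlet7c-1, had 46.1 and 46.5 TPM. The long noncoding RNA 6720427I07Rik, which spans Mirlet7a-1, Mirlet7d and Mirlet7f-1, was lowest with 5.96 and 4.54 TPM from 221 and 179 counts. Host RNA does not give the amount of mature let-7. The letters GGAG, the motif LIN28 is known to bind, are present anywhere in the sequence of 9 of the 12 hairpins (75%). The same holds for 447 of all 1005 mouse hairpins in the RefSeq table (44.5%). Their place in the hairpin was not checked. Mature let-7e-5p itself holds these letters, so a hairpin that has them need not have a LIN28 site.

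Messages known as let-7 targets, other than the members, were detected in 26 of 26 cases, beside 61.8% of protein coding genes. None was over 2-fold apart. Ccnd2, a D-type cyclin that drives entry into the cell cycle, had 248 and 244 TPM. Cdc34, a ubiquitin-conjugating enzyme, had 67.3 and 61.8 TPM, and Nras, a small GTPase, 64.0 and 64.8 TPM. The summed level of the 26 genes was 1014 TPM in replicate 1 and 954 TPM in replicate 2. Listed targets outside the members with 4 or more seed matches, named after their values were seen, were low. Nr6a1, with 8 matches, had 2.40 and 1.84 TPM. Hic2, with 4, had 3.69 and 3.83 TPM, and Trim71, with 4, had 1.20 and 1.00 TPM. Of the members with 4 matches, Hmga2 had 41.4 and 42.6 TPM and Igf2bp1 18.9 and 20.6 TPM. Lin28b, also with 4, had 0.40 and 0.52 TPM. A link between matches and level was not tested.

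Within the Igf2bp family Igf2bp2 was highest and Igf2bp1 lowest, and the order was the same in both libraries. Igf2bp2 (ENSMUSG00000033581.12, chr16:22059009-22163299, minus strand) had 5578 counts and 105 TPM in replicate 1, and 6192 counts and 109 TPM in replicate 2, or 107 ± 2.28 TPM (SD, n = 2). It is the paralogue that is also known from adult metabolic tissues. Igf2bp3 (ENSMUSG00000029814.8, chr6:49085223-49214957, minus strand), a common tumour marker, had 4144 counts and 57.9 TPM in replicate 1, and 3838 counts and 50.5 TPM in replicate 2, or 54.2 ± 5.23 TPM (SD, n = 2). Igf2bp1 (ENSMUSG00000013415.5, chr11:95957163-96005940, minus strand), known for binding the zipcode of the Actb message, had 2554 counts and 18.9 TPM in replicate 1, and 2752 counts and 20.6 TPM in replicate 2, or 19.8 ± 1.23 TPM (SD, n = 2). Their level exceeded that of 94.2%, 87.5% and 70.5% of protein coding genes, in the order Igf2bp2, Igf2bp3 and Igf2bp1.

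The family summed to 182 TPM in replicate 1 and 180 TPM in replicate 2. Igf2bp2 made up 57.9% and 60.4% of that sum, Igf2bp3 31.8% and 28.1%, and Igf2bp1 10.4% and 11.5%. The proteins are close paralogues. Translated from the M21 coding sequences, Igf2bp1 and Igf2bp3 were identical at 75.3% of aligned residues, Igf2bp1 and Igf2bp2 at 69.0%, and Igf2bp2 and Igf2bp3 at 68.4%. The Lin28 pair shared 70.6% and the Hmga pair 57.0% of aligned residues. As a share of the longer protein, identity was 51.3% for the Lin28 pair and 49.1% for the Hmga pair. By that measure the Igf2bp pairs had 74.3%, 65.9% and 65.4%, in the order above.

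The transcript tables divide Igf2bp2 between a coding and a non-coding form. The coding transcript Igf2bp2-201, of 592 codons, held 42.0% and 45.9% of the gene's TPM. Igf2bp2-207, annotated as a retained intron without a reading frame, held 41.2% and 38.9%, from 2322 and 2396 counts. All retained-intron transcripts of Igf2bp2 together reached 55.6% in replicate 1 and 53.2% in replicate 2, and coding ones 44.4% and 46.6%. Deposited intervals of the leading 2 overlapped in both libraries, 38.3 to 46.7 TPM for Igf2bp2-201 and 35.8 to 46.7 TPM for Igf2bp2-207 in replicate 1, so their order is not settled. If only coding transcripts are counted, Igf2bp2 had 46.8 and 50.7 TPM, below Igf2bp3 in replicate 1 and 0.17 TPM above it in replicate 2.

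For Igf2bp1 the coding Igf2bp1-201 held 96.5% and 89.2% of the gene's TPM. Igf2bp1-202, a short transcript without a reading frame, held 1.6% and 7.77%, estimated from 3.02 and 16.96 counts. Its deposited intervals, 0.0101 to 1.32 TPM in replicate 1 and 0.672 to 2.91 TPM in replicate 2, overlap. Igf2bp3 and Lin28b have 1 transcript each in the deposited tables, and Lin28a-201 took all counts of Lin28a.

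**Figure D3:**
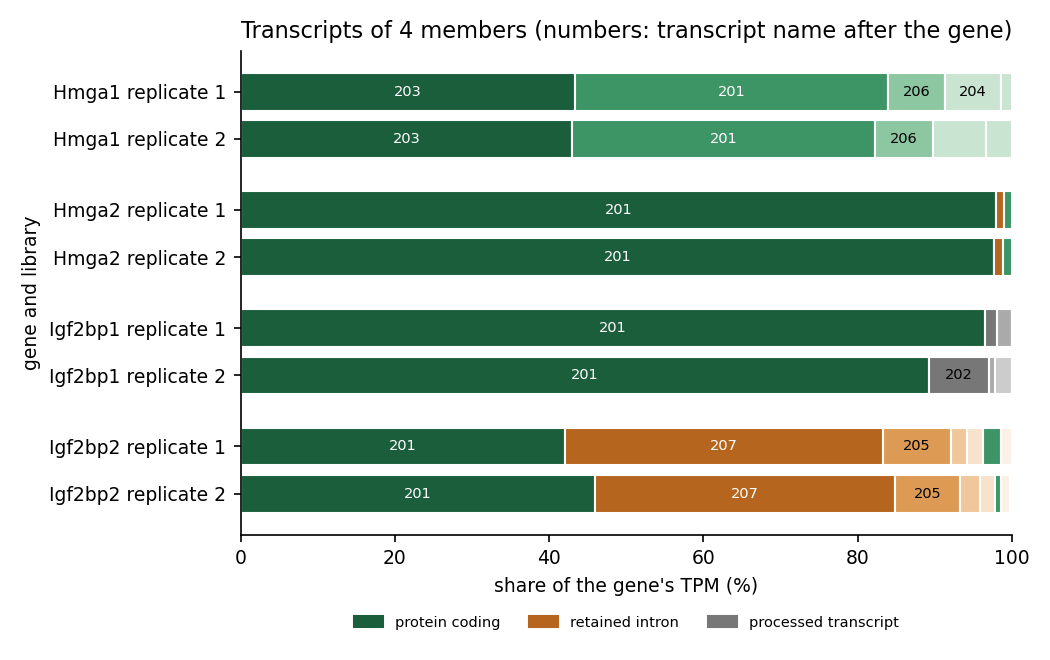
Share of each transcript in its gene's TPM, in percent, for the 4 members with more than 1 transcript with counts, replicate 1 above replicate 2. Green marks protein coding transcripts, orange retained introns and grey other transcripts without a reading frame. Igf2bp2 is divided between a coding and a retained-intron transcript, Hmga1 between coding transcripts 203 and 201, and Hmga2 and Igf2bp1 are mostly 1 coding transcript.

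Messages that IGF2BP proteins are known to bind, and their partners, were detected in 16 of 16 cases, beside 61.8% of protein coding genes. None was over 2-fold apart. Actb, the cytoplasmic beta actin gene, had 5993 and 5994 TPM. H19, an imprinted noncoding RNA, had 1032 and 1033 TPM, and Igf2, the fetal growth factor that gave the family its name, 935 and 971 TPM. The IGF2BP proteins are also readers of the RNA mark m6A. Detected were 15 of 15 other writers, erasers and readers, beside 61.8% of protein coding genes. Wtap, a subunit of the methyltransferase complex, led these with 104 and 107 TPM, followed by the reader Ythdf2 with 81.5 and 79.7 TPM and the demethylase Fto with 72.2 and 66.2 TPM. Ythdf1, named after its values were seen, was the one furthest apart between the libraries at 26.8 and 19.99 TPM.

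Hmga1 had the highest level of the members, and Hmga2 stood between Igf2bp3 and Igf2bp1. Hmga1 (ENSMUSG00000046711.11, chr17:27556497-27563674, plus strand) had 4440.5 counts and 179 TPM in replicate 1, and 4751 counts and 183 TPM in replicate 2, or 181 ± 3.01 TPM (SD, n = 2), above 96.7% of protein coding genes. Hmga2 (ENSMUSG00000056758.10, chr10:120361275-120476469, minus strand), whose loss is known to give pygmy mice, had 2517 counts and 41.4 TPM in replicate 1, and 2751 counts and 42.6 TPM in replicate 2, or 42.0 ± 0.870 TPM (SD, n = 2), above 84.0% of them. The pair summed to 220 TPM in replicate 1 and 225 TPM in replicate 2, of which Hmga1 was 81.2% and 81.1%.

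By gene TPM the order Hmga1, Igf2bp2, Igf2bp3, Hmga2, Igf2bp1 held in both libraries. Each gene's lower library stood above the next gene's higher one, and the deposited intervals of neighbours were separate in each library. On coding transcripts alone the step of Igf2bp2 over Igf2bp3 turned in replicate 1, at 46.8 against 57.9 TPM, and was 50.7 against 50.5 TPM in replicate 2. By gene TPM the closest step was that of Igf2bp3 over Hmga2, 1.40-fold in replicate 1 and 1.19-fold in replicate 2. The widest was that of Igf2bp1 over Lin28b, 47.2-fold and 39.7-fold.

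Hmga1 reads were divided between coding forms. Hmga1-203 held 43.3% and 43.0% of the gene's TPM and Hmga1-201 40.6% and 39.3%, with intervals of 62.8 to 82.3 TPM and 62.5 to 82.9 TPM in replicate 1 that overlap. Several Hmga1 transcripts differ in length between the GENCODE M4 models that were counted and the M21 models that gave the reading frames, so form shares assume that the frame is the same in both. By those frames, transcripts of 106 or 107 codons made up 52.2% in replicate 1 and 53.9% in replicate 2, and those of 96 codons 47.8% and 46.1%. The long and short forms of HMGA1 are known splice products that differ by an insert ahead of the second AT-hook. The insert of Hmga1-206, of 107 codons, over Hmga1-201, of 96, is 33 bases long and in frame. It lies at chr17:27559671-27559703 on the plus strand of mm10 and is shown in capitals with 12 coding bases to either side. The bases after it come from the next exon, and the same sequence results if the insert is placed 1 base away.
Hmga1 insert: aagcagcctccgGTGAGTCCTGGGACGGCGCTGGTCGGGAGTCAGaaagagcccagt
Hmga2 showed no such division, since Hmga2-201, of 108 codons, held 98.0% and 97.7%.

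Hmga1b (ENSMUSG00000078249.5, chr11:120762794-120764419), another annotated gene, encodes a protein identical to that of Hmga1 at 100% of aligned residues. Its 107 residues stand beside 106 in the Hmga1 form compared. The gene was given 64.4 and 102.8 counts, 2.50 and 3.76 TPM, with a deposited posterior SD of 16.2 and 20.1 counts. Its deposited posterior mean was higher, 7.12 and 7.46 TPM. The posterior SD of the Hmga1 count was also 16.2 and 20.1. Reads of the pair are shared between near-identical sequences, so the value of Hmga1b is uncertain. By either estimate it amounts to little beside that of Hmga1.

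HMG-box and nucleosome-binding genes, which are not of the Hmga family, were detected in 11 of 11 cases, beside 61.8% of protein coding genes. Hmgn2 had 1998 and 1916 TPM, Hmgb1 1136 and 1039 TPM and Hmgn1 473 and 417 TPM, all above Hmga1. Of 7 cell cycle inhibitors and tumour suppressors linked to HMGA2 and senescence, 6 were detected. Cdkn1c, an imprinted inhibitor of cyclin-dependent kinases, had 560 and 456 TPM, Trp53 118 and 120 TPM and Cdkn1a 53.6 and 51.9 TPM. Cdkn2a, the Ink4a and Arf locus that HMGA2 represses in mouse neural stem cells, had 0 counts in each library, where up to 3 would be compatible with that. Cdkn2b, its neighbour, had 80 and 84 counts, or 3.67 and 3.63 TPM, and was named after its values were seen.

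Genes of the wider fetal growth programme were mostly high. Of 17 genes that were found, 16 were detected, beside 61.8% of protein coding genes. H19, Igf2 and Mest led the list, the last with 969 and 864 TPM. The exception was Sall4, an embryonic zinc finger gene that is another oncofetal marker. Named after its values were seen, it had 26 counts and 0.69 TPM in replicate 1, and 80.9 counts and 1.44 TPM in replicate 2.

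**Figure D4:**
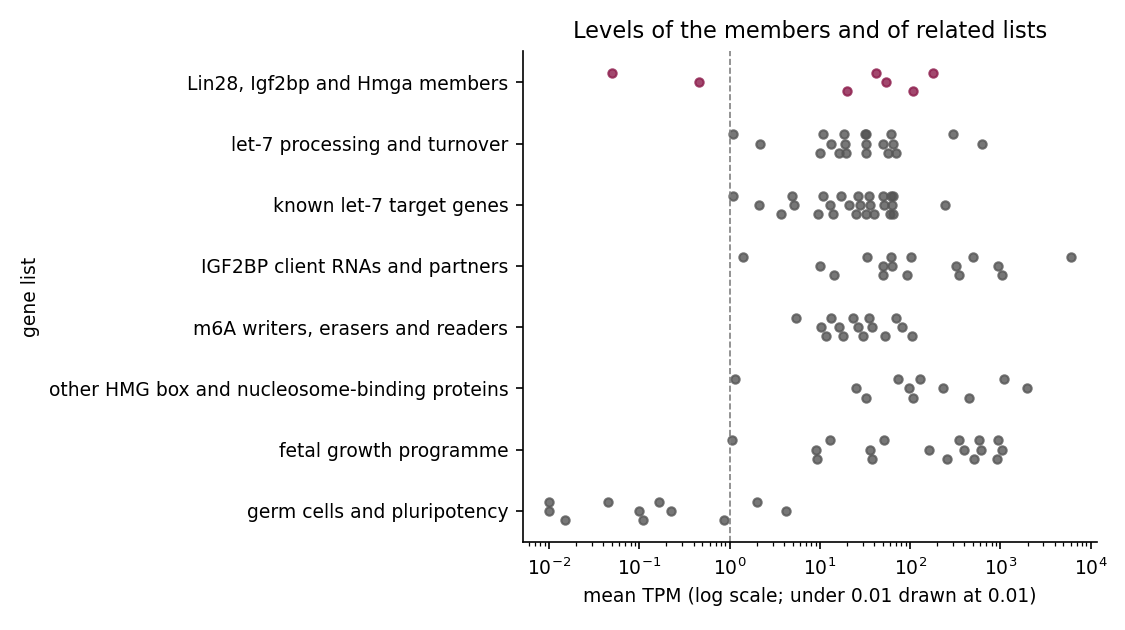
Mean TPM of the 2 libraries on a log scale for the members, in red, and for 7 related gene lists, in grey, with 1 point a gene; values under 0.01 are drawn at 0.01 and the dashed line is TPM 1. Lin28a and Lin28b lie with the germ cell and pluripotency genes, of which 9 of 11 were not detected, and the other 5 members among the detected genes of the remaining lists.

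The libraries differed little at the members. Ratios were taken as log2 of replicate 1 over replicate 2 on library-size corrected counts. None of the 5 members whose mean count reached 100 was over 2-fold apart, and 0.298% of 12761 genes with such a count were, so 0 of 5 is near the background. Igf2bp3 was higher in replicate 1, by 0.13 with a 95% counting interval of 0.07 to 0.20. The other 4 were lower in replicate 1. Igf2bp2 had a ratio of -0.13 (interval -0.18 to -0.08), Hmga2 -0.11 (-0.18 to -0.03), Igf2bp1 -0.09 (-0.16 to -0.01) and Hmga1 -0.08 (-0.13 to -0.02). These intervals leave out 0 but hold counting error only, not the spread between embryos, and a single library per side gives no p-value. The median ratio was -0.09 over the 5 members and 0.01 over all 12761 genes. The median size without sign was 0.11 for the members against 0.10 for all genes, and 95% of all genes stayed within 0.38. When spike-in RNAs set the library sizes, the median over all genes shifted to 0.27, and the ratios of Igf2bp2, Hmga2, Igf2bp1 and Hmga1 became 0.14, 0.16, 0.18 and 0.19, and that of Igf2bp3 0.40. From deposited TPM the ratio of Igf2bp3 was 0.20.

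**Figure D5:**
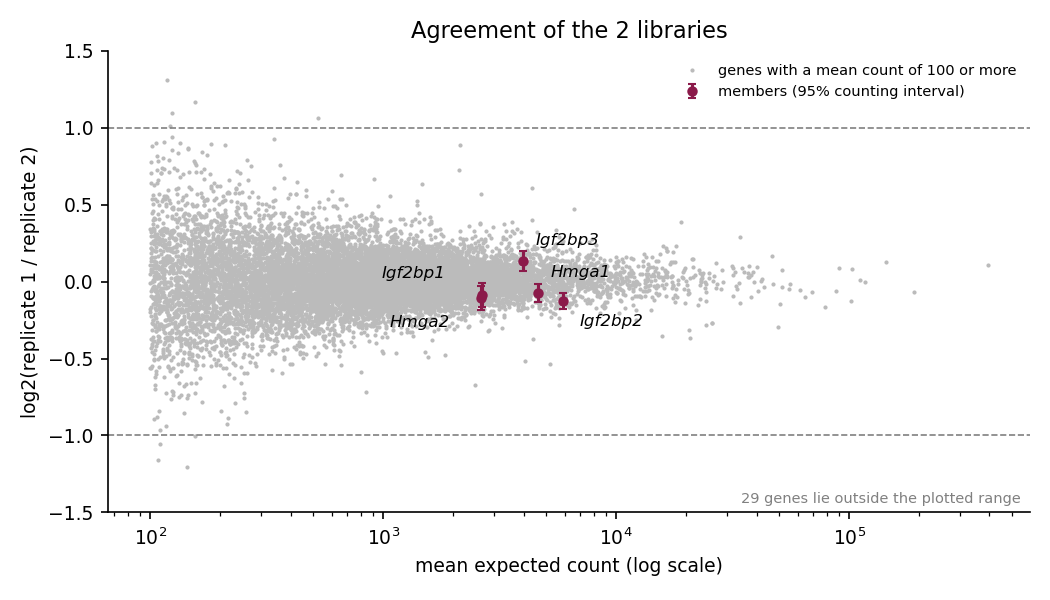
Log2 of replicate 1 over replicate 2 against mean expected count on a log scale for 12761 genes in grey, with the 5 members of that range in red and their 95% counting intervals. Dashed lines mark 2-fold, 29 genes lie beyond the plotted range, and the members sit between -0.13 and 0.13.

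Markers of the labelled organ were present in both libraries, with 10 of 10 stomach genes detected, beside 61.8% of protein coding genes. Cym, the gastric protease chymosin, had 2152 and 1927 TPM, Epcam 266 and 245 TPM, and Foxf1, a mesenchymal factor, 112 and 120 TPM. The summed level of 12 pancreas markers was 569 TPM in replicate 1 and 8.91 TPM in replicate 2, and Ptf1a, Prss2 and Cela2a were at 0 in replicate 2. Pnliprp1 and Ctrb1 led that list in replicate 1 with 186 and 152 TPM, against 0.04 and 0.07 TPM in replicate 2. Epithelial markers, led by Krt8, Krt18 and Krt19, summed to 2044 and 1794 TPM. Mesenchymal ones, led by Col3a1, Col1a1 and Vim, summed to 3510 and 3284 TPM, and neural crest ones, led by Ednrb, Stmn2 and Tubb3, to 329 and 312 TPM, and every gene of these 3 lists was detected. Of 10 liver markers 7 were detected, led by Apoa1, Trf and Ttr, with a sum of 119 and 116 TPM. The near-equal sum did not hold for each gene. At any count 3 of the 10 were over 2-fold apart, all lower in replicate 1. They were Alb with 44 and 122 counts, Ahsg with 3 and 22, and Fgb with 4 and 14. Of 14 erythroid markers 11 were detected, with Hbb-bs and the alpha globin genes Hba-a2 and Hba-a1 highest, and a sum of 10753 and 11265 TPM. The part of these cell types in the members' levels and ratios was not tested.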

How the data were processed

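The authors deposited expected counts per gene and transcript, estimated from reads and not normalized, on mm10 with GENCODE M4, per the deposited notes. Not given in the sources used here were the aligner and counter. Neither was the use of strand, so antisense reads cannot be told apart. The authors' TPM includes spike-ins (12.1% and 14.2% of TPM in replicates 1 and 2), and the deposited percent is a transcript's share of its gene. The level of the deposited TPM intervals is not stated, and they need not hold the deposited TPM. For Igf2bp3 in replicate 1 the TPM of 57.9 lies above its interval of 54.2 to 57.7. For Lin28a the TPM of 0.05 lies below its interval in both libraries. The 26248 numbered entries that name no gene took 15.5 and 25 counts and were left out, as were spike-ins. Ratios used TMM library sizes (edgeR 4.0.16, R 4.3.3) with 0.5 added to each count; the method was tested on simulated data. Alternatives were DESeq2 1.42.0 size factors, TPM ratios, spike-in sizes, other count, fold and TPM thresholds, the posterior mean TPM and each library alone. Gene names, types and positions come from GENCODE M21 on mm10. Lin28 and let-7 family genes by symbol, the 3 highest genes of each list and transcripts with 10% or more were named by rule, and 1 such gene is not reported here. The members and lists were chosen with earlier results of these data known. Reads amplified by PCR are not independent molecules, so intervals and floors cover counting error only, and no counts were pooled.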

Additional observations from a re-analysis of the deposited data

How the results depend on the processing

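The count of 5 detected members held with TPM limits of 0.5 and 5, with the posterior mean, with TPM on a total that left out spike-ins and mitochondrial genes, and in each library alone (5 and 5). The count of 0 members over 2-fold apart held under each alternative run, including a limit of 1.5-fold. The median member ratio of -0.09 was -0.10 with DESeq2 sizes and -0.04 from deposited TPM, and moved to 0.18 with spike-in sizes, a scaling that shifts all genes. The levels of all 7 members rose by more than their SD when spike-ins and mitochondrial genes were left out of TPM. Matches of 8 and of 6 letters, alternatives added after seeing the data, gave 6 and 7 members with a let-7 match. Over the 13110 UTRs of detected genes the shares were 3.07% and 22.6%. No paired analysis was possible because the series has 1 group of 2 libraries. Depth limits the Lin28 genes most, with 3 to 49 counts; by the posterior mean of the whole gene Lin28a stands above Lin28b, against the order of their counts.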
